A study of Mus musculus with 4 samples.

Results

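Sestrins and the proteins that tell the kinase complex mTORC1 about amino acids were followed at the level of RNA in group 2 innate lymphoid cells (ILC2s) exposed to the bile acid deoxycholic acid (DCA). The genes are Sesn1, Sesn2, Sesn3, Ddit4, Depdc5, Nprl2, Nprl3, Rragc, Rragd, and Mtor, 10 of the 27179 rows of the count table, found by their symbols. They were selected on earlier results of the same libraries, that is, on these very counts with DCA and with vehicle, so their differences between treatments are described here and not tested. All 10 had a mean of at least 1 CPM (counts scaled to a library size of 1e6) over the libraries, the level set for inclusion among the 11184 genes fitted. Sesn2 reached that level through the DCA libraries alone and Rragd through the vehicle libraries alone.

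ILC2s are lymphocytes without antigen receptors that make type 2 cytokines in tissues such as the gut. Those studied here came from the large intestine of WT C57BL/6 mice by cell sorting and were grown for 5 days with the cytokines IL-25 and IL-33 besides IL-2 and IL-7, each at 10 ng/mL, and then given vehicle or 100 μM DCA, with 2 libraries for each treatment. The description deposited with the libraries gives 16 hours of treatment and the paper 24 hours. Mice in these experiments were 6 to 14 weeks old, and those of the C57BL/6J strain 6 to 8 weeks. The sex of the C57BL/6J mice is given in one place as either and in another as male. Nothing states how many mice or cultures stand behind a library, so the spread between libraries may be technical. In RNA from a whole culture, fewer cells of a type and less RNA per cell cannot be told apart.

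mTORC1 is a kinase complex that turns on protein synthesis and growth when nutrients are plentiful, and lymphocytes depend on it when they are activated. Amino acids act through the Rag GTPases, which work as pairs of RagA or RagB with RagC or RagD and bring mTORC1 to the lysosome. GATOR1, built from the products of Depdc5, Nprl2, and Nprl3, switches RagA and RagB off, and GATOR2 opposes GATOR1. Sestrins bind GATOR2 when leucine is scarce, which leaves GATOR1 active, and REDD1, the product of Ddit4, holds mTORC1 back through the TSC complex. SESN2 and DDIT4 are known targets of the stress factor ATF4, and sestrin genes are also known to answer to p53 and FoxO factors.

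The libraries held between 26564059 and 35838342 counts, except DCA replicate 2, which held 244165712. Because of that depth, 3 counts equal 0.0125 CPM in DCA replicate 2 and between 0.082 and 0.115 CPM in the other libraries. This is the most that a count of 0 allows if every count is a separate fragment, and the limit covers counting error only. Where a fragment gave more than 1 count, which is possible here, the limit is higher and bounds set from 3 counts are too extreme. The ILC2 markers Gata3 (599 to 839 CPM), Id2, Il7r, Il1rl1, Klrg1, Il2ra, Il17rb, Rora, and Ptprc were detected in every library, whereas Thy1 was at 4.24 CPM in DCA replicate 1 and at or under 0.0546 CPM in the others. Klrg1 (688 and 678 CPM with vehicle against 463 and 356 CPM with DCA), Il1rl1 (832 and 876 against 598 and 533 CPM), and Il2ra (1074 and 1229.8 against 1613 and 1584 CPM) had unadjusted p-values under 0.05 in edgeR. With DESeq2, 1 of the 10 ILC2 markers had an adjusted p under 0.05. The 10 markers summed to between 7150.2 and 7414 CPM in every library, with Id2 (2811 to 3102 CPM) as the largest part. Rises and falls of single markers can cancel in this sum. The T cell list summed to 20.6 and 33.5 CPM with vehicle and to 27.4 and 15.9 CPM with DCA. Most of this was Cd3g (11.9 and 25.5 against 21.3 and 10.5 CPM) and Trac (6.12 and 7.98 against 5.75 and 4.64 CPM). Cd4 and Cd8a were at 0 throughout. The mast cell and basophil list summed to 362 and 284 CPM against 302 and 158 CPM, nearly all of it Kit. The macrophage and monocyte list summed to 24.7 and 24 CPM with vehicle and to 7.30 and 10.1 CPM with DCA, nearly all of it Cd68 (unadjusted p of 0.0381, edgeR), with Csf1r at 0 in every library and Lyz2 at 0 in all but DCA replicate 2. The epithelial list lay between 7.24 and 13.5 CPM and the ILC3 list at or under 1.48 CPM. The part of these markers in the results was not tested. In edgeR's quasi-likelihood test of DCA against vehicle, an adjusted p under 0.05 was reached by 0 of 11184 genes (0.0%). Without adjustment, a p under 0.05 was found for 478 genes (4.27%), of which 284 (2.54%) were higher and 194 (1.73%) lower with DCA. DESeq2 called 126 genes (1.13%) at an adjusted p under 0.05.

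Among the 10 genes, Sesn2 and Rragd differed most between treatments and in opposite directions. Sesn2 had at most 15 counts in a vehicle library and at least 521 counts in each DCA library, while Rragd had at least 112 counts in each vehicle library and was at or near 0 with DCA. Sesn1 and Rragc also lay lower in each DCA library than in either vehicle library, and Nprl2 and Mtor lay higher. Sesn3, Ddit4, Depdc5, and Nprl3 overlapped between treatments. Thus 3 genes were higher in both DCA libraries and 3 were lower in both, where 18.6% and 14.7% of all genes fitted were so placed, or 33.3% in either direction. By the log2 fold change 7 of the 10 were above 0 and 3 below 0, against 50.7% and 49.3% of all genes fitted. The median log2 fold change of the 10 genes was 0.44, and that of all genes fitted was 0.0080.

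**Figure D1:**
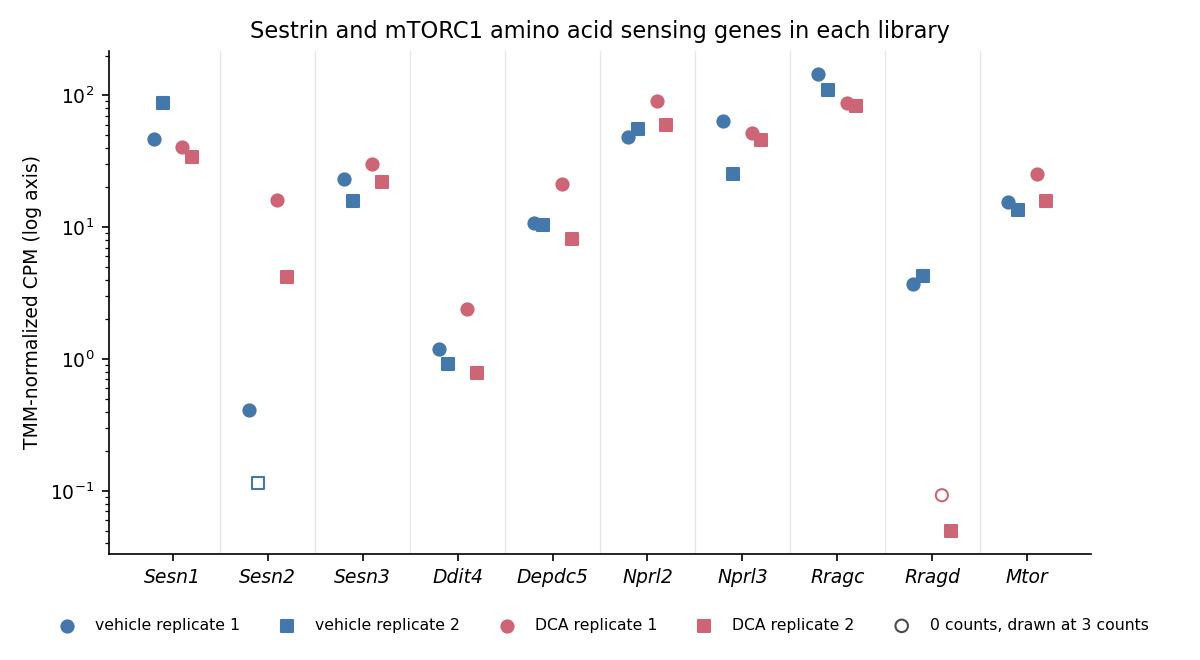
TMM-normalized CPM (log axis) of each of the 10 genes in the 4 libraries, blue for vehicle and red for DCA, circles for replicate 1 and squares for replicate 2, with open symbols for libraries at 0 counts, drawn at the CPM of 3 counts. Sesn2 lies at or under 0.41 CPM with vehicle and at 16.1 and 4.21 CPM with DCA, and Rragd at 3.72 and 4.28 CPM with vehicle and at or under 0.0499 CPM with DCA.

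Sesn2 (chromosome 4, 132492804 to 132510456 on GRCm38) encodes the sestrin that is best known as a leucine sensor and is induced by stress. It had 15 and 0 counts in vehicle replicates 1 and 2 and 521 and 1013 counts in DCA replicates 1 and 2. In CPM these are 0.41 and 0 with vehicle and 16.1 and 4.21 with DCA. The DCA libraries lay above the vehicle libraries and differed 3.83-fold from each other. The mean with DCA was 49.6-fold that with vehicle, or 38.7-fold with the vehicle library at 0 set to 3 counts. The log2 fold change from edgeR was 5.59. It was 4.35 without DCA replicate 1, 4.63 without vehicle replicate 2, and at least 6.47 without vehicle replicate 1, the last as a bound from 3 counts in the library at 0. On the log2(CPM + 1) scale, which shrinks changes of low genes, the difference was 2.99 (standard error 0.89). Standard errors of the other genes are on this scale too and are not those of the edgeR log2 fold changes beside them. A log2 fold change above 2 was found for 4.57% of all genes fitted and one below -2 for 2.74%.

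The stretch before the start site of Sesn2 is shown because this gene was at or close to 0 in the vehicle libraries. It comes from RefSeq on GRCm38.p6, minus strand, chr4:132510502-132510706, and ends 45 bases before the start site, where annotated exon sequence begins. Capitals mark CpG dinucleotides, of which it holds 12 in 205 bases.
Sesn2: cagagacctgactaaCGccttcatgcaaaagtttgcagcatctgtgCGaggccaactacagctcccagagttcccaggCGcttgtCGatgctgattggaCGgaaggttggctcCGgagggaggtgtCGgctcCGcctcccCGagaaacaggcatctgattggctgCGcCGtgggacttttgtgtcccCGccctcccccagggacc

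Sesn1 (chromosome 10, 41810574 to 41908436), which encodes the sestrin known as a target of p53 and FoxO factors, was the most abundant of the 3 per length in every library. Sesn1 was at 47.0 and 86.7 CPM with vehicle and at 40.4 and 34 CPM with DCA. Both DCA libraries were below both vehicle libraries, but the lower vehicle library was close to the DCA libraries, and the vehicle libraries differed 1.84-fold from each other. The log2 fold change of Sesn1 was -0.85 (standard error 0.45) with all libraries and -0.34 without vehicle replicate 2. Sesn3 (chromosome 9, 14276301 to 14326134), encoding the third family member, was at 23.1 and 15.9 CPM with vehicle and at 29.9 and 21.9 CPM with DCA, so that the treatments overlapped. Its log2 fold change was 0.41 (standard error 0.34), and with 1 library left out it ranged from 0.16 (without DCA replicate 1) to 0.67 (without vehicle replicate 1), being 0.17 without vehicle replicate 2.

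The make-up of the sestrin family per length (CPM per kilobase of the longest transcript) differed more than its sum. Summed over the family, the level was 15.0 and 24.5 CPM per kilobase with vehicle and 18.5 and 12.5 CPM per kilobase with DCA, and the treatments overlapped. Sesn1 made up 82.3% and 92.9% of that sum in the vehicle libraries and 57.3% and 71.2% in the DCA libraries. Sesn2 made up 0.787% and 0% with vehicle and 25.0% and 9.67% with DCA. Sesn3 made up 16.9% and 7.12% with vehicle and 17.7% and 19.1% with DCA. For Sesn1 and Sesn2 the shares of the treatments thus did not overlap, and Sesn1 remained the largest part throughout.

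Rragd (chromosome 4, 32982998 to 33022180) encodes RagD. It had 136 and 112 counts in vehicle replicates 1 and 2, 0 in DCA replicate 1, and 12 in DCA replicate 2. In CPM these are 3.72 and 4.28 with vehicle and 0 and 0.0499 with DCA. The vehicle libraries were close together and both DCA libraries were far below them, including the deepest library. The mean with DCA was lower 160.3-fold, or 56.0-fold with DCA replicate 1 set to 3 counts. The log2 fold change was -7.02. On the log2(CPM + 1) scale the difference was -2.28, with a standard error of 0.088 that holds for that scale only. Thinning DCA replicate 2 at random to 32102232 counts left 1 count of Rragd there and 126 of Sesn2. Without DCA replicate 2, the log2 fold change of Rragd was -5.43 or below, with 3 counts set in the remaining DCA library.

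The bases before the start site of Rragd are shown beside those of Sesn2 because these genes differed most. They come from RefSeq on GRCm38.p6, plus strand, chr4:32982748-32982997, with CpG dinucleotides in capitals, of which there are 5 in 250 bases.
Rragd: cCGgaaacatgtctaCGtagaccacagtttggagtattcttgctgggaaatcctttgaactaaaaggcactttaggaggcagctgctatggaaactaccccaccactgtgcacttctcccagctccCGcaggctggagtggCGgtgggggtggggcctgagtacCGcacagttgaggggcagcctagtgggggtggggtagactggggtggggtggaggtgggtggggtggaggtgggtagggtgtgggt

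Rragc (chromosome 4, 123917433 to 123936997) encodes RagC, which takes the same place in the Rag pair as RagD. Rragc was at 146 and 110.4 CPM with vehicle and at 87.0 and 82.3 CPM with DCA. The DCA libraries were close together and below both vehicle libraries, and the log2 fold change was -0.60 (standard error 0.20), between -0.78 and -0.41 with any single library left out. Per length, Rragc made up 98.7% and 98.0% of the Rragc and Rragd sum with vehicle. Rragd made up the remaining 1.30% and 1.97%, and 0% and 0.0313% with DCA. The sum itself was 56.9 and 43.4 CPM per kilobase with vehicle and 33.5 and 31.8 CPM per kilobase with DCA. Rragc thus carried nearly all of the RagC and RagD side of the pair at either treatment. Its annotated exons share 264 bases with those of 4930535I16Rik on the opposite strand. This gene is not used here, and the strand setting of the counting is not stated.

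Rraga and Rragb, which encode the partners of RagC and RagD, were taken from the list of other pathway genes. Rraga was at 24.6 and 26.8 CPM with vehicle and at 48.5 and 39.3 CPM with DCA, higher in both DCA libraries. Its log2 fold change of 0.78 (standard error 0.16) had an adjusted p of 0.999 in edgeR's quasi-likelihood test (unadjusted p of 0.0826). Rragb was at 3.36 and 14 CPM with vehicle and at 7.61 and 9.81 CPM with DCA, within the spread of the vehicle libraries.

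Of the GATOR1 genes, Nprl2 was separated between treatments and the other 2 overlapped. Nprl2 (chromosome 9, 107542177 to 107545706), encoding a subunit with its GTPase-activating function, was at 48.3 and 55.5 CPM with vehicle and at 90.0 and 59.9 CPM with DCA. Each DCA library lay above each vehicle library, although DCA replicate 2 was close to vehicle replicate 2. The log2 fold change of Nprl2 was 0.53 (standard error 0.31), 0.20 without DCA replicate 1 and 0.80 without DCA replicate 2. Depdc5 (chromosome 5, 32863646 to 32994233), which encodes the largest subunit, was at 10.7 and 10.4 CPM with vehicle and at 21.3 and 8.09 CPM with DCA. The DCA libraries lay on either side of the vehicle libraries, and the log2 fold change of 0.48 (standard error 0.65) turned to -0.39 without DCA replicate 1 and was 1.02 without DCA replicate 2.

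Nprl3 (chromosome 11, 32231963 to 32267707), the partner of Nprl2, was at 64.2 and 25.5 CPM with vehicle and at 51.4 and 46.2 CPM with DCA. The vehicle libraries differed 2.52-fold and enclosed the DCA libraries, and the log2 fold change of 0.12 (standard error 0.65) was 0.91 without vehicle replicate 1, -0.39 without vehicle replicate 2, 0.046 without DCA replicate 1, and 0.20 without DCA replicate 2. Exons of Nprl3 share 1340 bases with exons of Mpg, a DNA repair gene on the opposite strand. Mpg had 1807 and 532 counts in the vehicle libraries against 1191 and 8570 in the DCA libraries, and the ratio of Nprl3 to Mpg counts was between 1.26 and 1.40 in the 4 libraries. Because the strand setting is not stated, reads of these genes may not be told apart, and the Nprl3 values are uncertain. Per length, Nprl2 was the highest and Depdc5 the lowest GATOR1 gene in every library. Depdc5 made up between 1.69% and 3.15% of their sum.

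Ddit4 (chromosome 10, 59949675 to 59951770) was scarce, at 44 and 24 counts in the vehicle libraries against 77 and 188 with DCA. These are 1.20 and 0.916 CPM with vehicle against 2.38 and 0.781 CPM with DCA. The DCA libraries enclosed the vehicle libraries and differed 3.05-fold from each other. On the log2(CPM + 1) scale the difference was 0.257, under its standard error of 0.47. The log2 fold change of 0.57 came to 1.17 when DCA replicate 2 was left out and to -0.45 when DCA replicate 1 was. Its paralog Ddit4l was at or under 0.0546 CPM in every library. Mtor (chromosome 4, 148448582 to 148557685), the kinase itself, was at 15.6 and 13.4 CPM with vehicle and at 25.4 and 15.8 CPM with DCA. DCA replicate 2 was nearly level with vehicle replicate 1, and the log2 fold change of Mtor was 0.50 (standard error 0.34), 0.12 without DCA replicate 1 and 0.80 without DCA replicate 2.

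In 9 of the 10 genes DCA replicate 1 was higher than DCA replicate 2, all but Rragd, whereas this was so for 47.9% of all genes fitted. Vehicle replicate 1 was above vehicle replicate 2 for 7 of the 10 genes and for 50.9% of all genes fitted. The differences of Nprl2, Mtor, Depdc5, and Ddit4 were therefore larger by DCA replicate 1 than by DCA replicate 2.

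**Figure D2:**
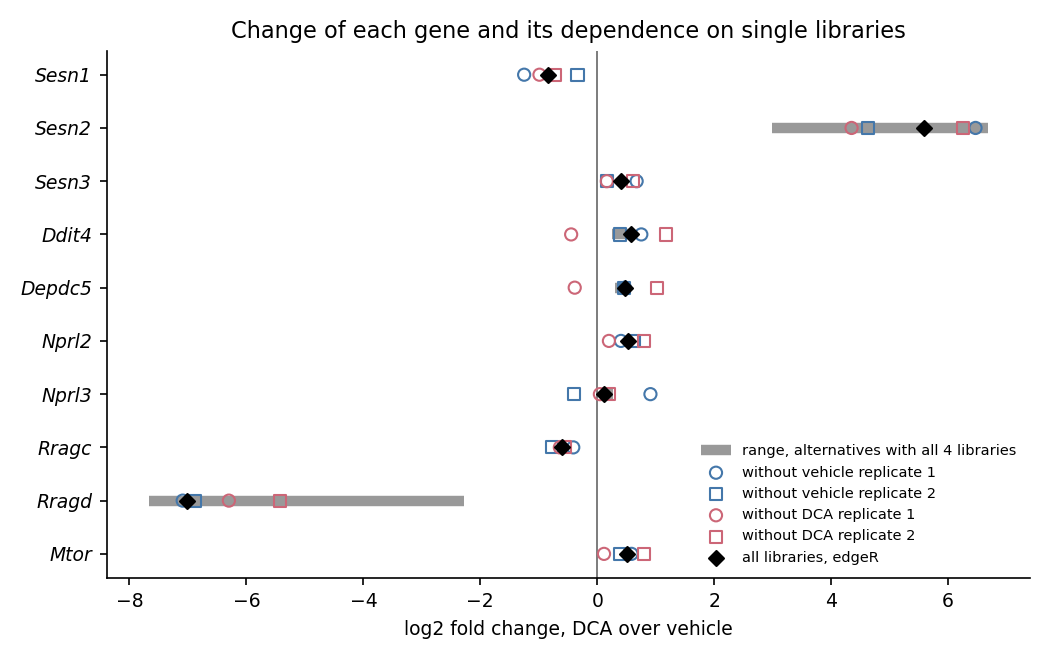
Log2 fold change of DCA over vehicle for the 10 genes, with diamonds for edgeR with all libraries, open symbols for the same fit without 1 library, and gray bars for the range over the alternatives that keep all 4 libraries; for Sesn2 without vehicle replicate 1 and Rragd without DCA replicate 2 the symbol is a bound from 3 counts. Sesn2 stays above 0 and Sesn1, Rragc, and Rragd below 0 at every symbol, while Ddit4, Depdc5, and Nprl3 cross 0 when 1 library is left out.

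Ordered by mean CPM per kilobase of the longest transcript, the vehicle libraries ran from Rragc (49.4) and Nprl2 (36.0) through Sesn1 (17.5), Nprl3 (15.2), Sesn3 (2.14), Mtor (1.70), Depdc5 (1.28), Rragd (0.798), and Ddit4 (0.604) to Sesn2 (0.059). Neighbors whose vehicle libraries overlapped were Sesn1 and Nprl3, and Sesn3 and Mtor. With DCA the order was Nprl2 (52.0), Rragc (32.7), Nprl3 (16.6), Sesn1 (9.77), Sesn2 (2.92), Sesn3 (2.84), Mtor (2.40), Depdc5 (1.79), Ddit4 (0.901), and Rragd (0.00498). The DCA libraries of Sesn2, Sesn3, Mtor, and Depdc5 each overlapped those of the next gene in the order, down to Ddit4, while those of Ddit4 lay above those of Rragd. Sesn2 thus moved from the last place to the middle of the order and Rragd from the eighth place to the last. With the union of all annotated exons as the length, the order of Sesn3 and Mtor changed at either treatment and that of Nprl3 and Sesn1 with DCA.

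**Figure D3:**
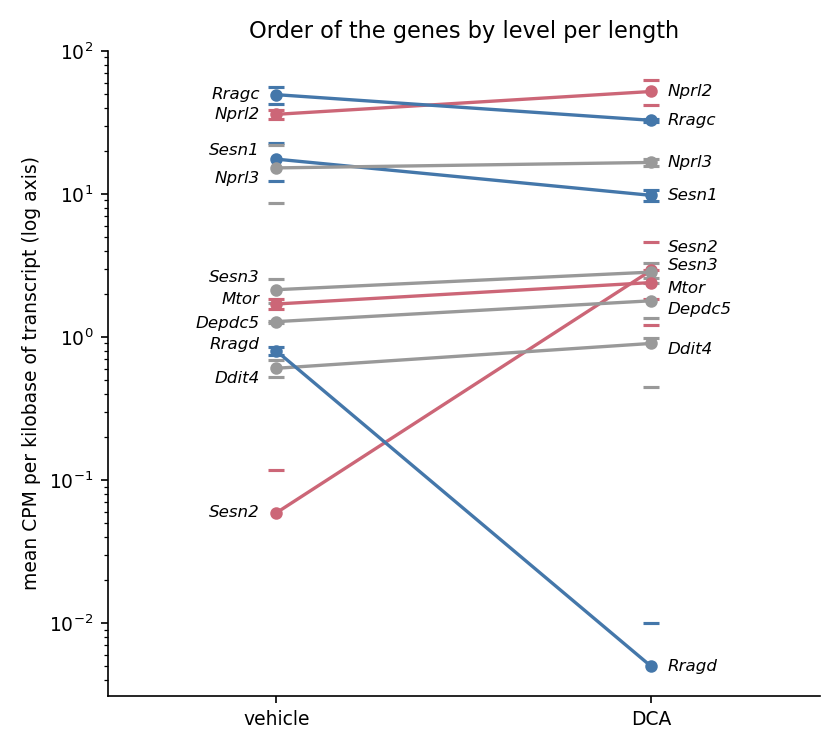
Mean CPM per kilobase of the longest transcript (log axis) with vehicle and with DCA, 1 line per gene and a short dash for each library above 0, in red where each DCA library was above each vehicle library, blue where each was below, and gray where they overlapped. Sesn2 goes from 0.059 to 2.92 and Rragd from 0.798 to 0.00498, while the other 8 genes stay within 1.80-fold of their vehicle mean.

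Promoter windows from RefSeq, from 250 bases before to 50 after the start site, were found for all 10 genes, with 11 windows in all because Sesn1 has a pair of start sites. They held between 20 and 32 CpG dinucleotides, except that of Rragd, with 6. Both strands were searched for TGATGNAA, the core of the element bound by ATF4 with C/EBP factors, for the E-box CACGTG, which TFEB and TFE3 can bind, and for GTAAACA, bound by FoxO factors. These were present in 3.97%, 7.15%, and 3.65% of the 32851 windows of all genes. No window of the 10 genes held TGATGNAA, which says only that these letters are not in these windows. Matches were found at Rragc, 112 bases before the start site, and at the upstream start site of Sesn1, 22 bases after it and on the opposite strand. They are shown with 10 bases on either side and the match in capitals, from chr4:123917311-123917336 and chr10:41810586-41810612 on GRCm38.p6, plus strand.
Rragc: tgattccgggCACGTGatagtaccac
Sesn1: aaccttctacTGTTTACcagccttttg

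The other genes of the pathway were read from the same fit over all genes. Of 46 listed genes 44 were fitted, all but Deptor and Ddit4l, and 27 had a log2 fold change above 0 and 17 one below 0, with a median of 0.10. In edgeR's quasi-likelihood test 0 of the 44 had an adjusted p under 0.05, also with DESeq2, and 3 (6.82%) had an unadjusted p under 0.05, against 4.27% of all genes, and 1 of the 3, Prr5l, reached 1 CPM through the DCA libraries alone. The DCA libraries lay above the vehicle libraries without overlap for 31.8% of the 44 and below them for 15.9%, against 18.6% and 14.7% of all genes.

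The TSC complex, which holds mTORC1 in check by acting on the small GTPase Rheb, held 2 of these 3 genes. It was listed in a group of 5 genes that also held Rheb and its relative Rhebl1, which are not subunits of the complex. All 5 had log2 fold changes above 0, as did 50.7% of all genes fitted, with Rheb at 0.062 and Rhebl1 at 0.43. Tsc2, which encodes the subunit that acts on Rheb, was at 14.5 and 9.54 CPM with vehicle and at 35.2 and 26.8 CPM with DCA. On the log2 scale it was higher by 1.36 (standard error 0.34), with an adjusted p of 0.999 from edgeR (unadjusted p of 0.0364). Tbc1d7, encoding the third subunit, was at 14.9 and 21.9 CPM with vehicle and at 45.1 and 41.4 CPM with DCA, higher by 1.23 on the log2 scale (standard error 0.27). In the same edgeR test Tbc1d7 had an adjusted p of 0.999 (unadjusted p of 0.0242). For Tsc2 and Tbc1d7 each DCA library was above each vehicle library and the treatments were separated by more than their spread. The unadjusted p of Tsc2 was 0.0694 without vehicle replicate 2 and 0.212 and 0.0960 without DCA replicates 1 and 2, and that of Tbc1d7 rose to 0.0579 when vehicle replicate 1 was left out and to 0.138 and 0.101 when DCA replicates 1 and 2 were. Tsc1, at 18.4 and 4.89 CPM with vehicle and at 23.6 and 22.8 CPM with DCA, had an unadjusted p of 0.225. Rheb, at 141 and 233 CPM with vehicle and at 209.6 and 180.3 CPM with DCA, overlapped between treatments.

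Prr5l, whose product binds mTORC2, the other mTOR complex, was the third gene. It had 2 and 0 counts in the vehicle libraries against 73 and 1615 with DCA, or 2.26 and 6.71 CPM. With 3 counts set in each vehicle library, the mean was 45.5-fold higher with DCA. This is not a lower limit, because vehicle replicate 1 held 2 counts rather than 0. Because Prr5l reached 1 CPM through the DCA libraries alone, it was fitted only by virtue of being higher there, and its values are given as a description. Without DCA replicate 2 its mean fell below 1 CPM. Rictor, the defining subunit of mTORC2, was at 52.9 and 46.5 CPM with vehicle and at 53.8 and 79.4 CPM with DCA (unadjusted p = 0.256, edgeR).

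No gene of the remaining groups had an unadjusted p under 0.05 in edgeR. Among mTORC1 partners, Mlst8 was at 13.9 and 30.7 CPM with vehicle and at 3.65 and 13.3 CPM with DCA (log2 fold change -1.40), and Rptor, which encodes the substrate-binding subunit raptor, had a log2 fold change of -0.65 with overlapping libraries, which turned to 0.30 without vehicle replicate 2. Among substrates, Tfeb, a transcription factor that turns on lysosomal genes, was at 3.91 and 3.21 CPM with vehicle and at 9.40 and 6.55 CPM with DCA (log2 fold change 1.16, unadjusted p = 0.293). Ulk1, which encodes an autophagy kinase, was at 18.4 and 0 CPM with vehicle and at 21.4 and 18.5 CPM with DCA. In KICSTOR, which anchors GATOR1 to the lysosome, Itfg2 was at 0 and 10.7 CPM with vehicle and at 22.3 and 13.9 CPM with DCA, and Kics2, counted under its older symbol BC048403, was at 3.80 and 1.83 CPM with vehicle and at 0.742 and 1.33 CPM with DCA. Ulk1 and Itfg2 were thus each at 0 in 1 vehicle library and present in the other, as were 7.01% of all genes fitted.

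The log2 fold changes in GATOR2 lay between -0.72 for Mios and 0.78 for Wdr59, and Wdr59, at 6.61 and 0.153 CPM in the vehicle libraries, turned to -0.18 without vehicle replicate 2. Among the other sensors Slc38a9, a lysosomal arginine sensor, had a log2 fold change of -0.73, which turned to 0.13 without vehicle replicate 1, and Castor2, a relative of the cytosolic arginine sensor Castor1, one of 0.72. Ragulator, which holds the Rag GTPases on the lysosome, had the smallest differences, from -0.39 for Lamtor3 to 0.26 for Lamtor5. In the folliculin complex, which acts on RagC and RagD, the 3 genes lay between -0.51 for Fnip1 and -0.24 for Flcn, with Fnip2 at -0.34. Fnip1 was at 43.2 and 14.3 CPM with vehicle against 23.3 and 17.3 CPM with DCA, and its difference was 0.48 without vehicle replicate 1 and -1.09 without vehicle replicate 2.

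**Figure D4:**
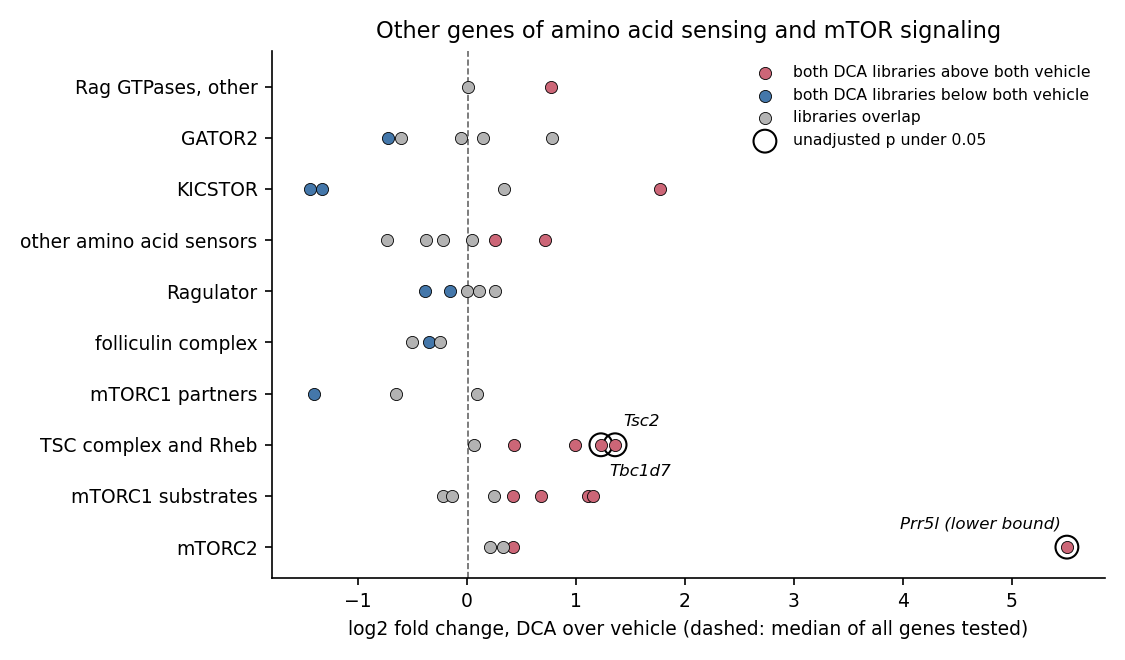
Log2 fold change of DCA over vehicle for the 44 other pathway genes fitted, 1 point per gene, by role, with the color giving whether the libraries of the treatments overlapped, circles around genes with an unadjusted p under 0.05 in edgeR, and the dashed line at the median of all genes fitted. Tsc2, Tbc1d7, and Prr5l are circled, and no gene passed an adjusted p of 0.05. Prr5l is drawn with 3 counts set in each vehicle library. Its label of a lower bound does not hold, because vehicle replicate 1 held 2 counts.

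Of 8 transcription factors reported to act on these genes, Ddit3, which encodes CHOP, was the 1 with an unadjusted p under 0.05 (0.0113, adjusted p 0.999, edgeR), at 8.96 and 9.89 CPM with vehicle and at 25.2 and 43.7 CPM with DCA. Without DCA replicate 2 its unadjusted p was 0.161. The other 7 had log2 fold changes below 0, between -0.51 for Nr3c1, the glucocorticoid receptor, and -0.0068 for Hif1a, with Foxo3 at -0.36, Foxo1 at -0.30, Trp53 and Atf4 at -0.16, and Nfe2l2 at -0.13. Apart from Nr3c1, each of these 7 turned above 0 with 1 library left out. Hif1a (0.31) and Foxo1 (0.20) did so without vehicle replicate 1, and Nfe2l2 (0.15) without vehicle replicate 2. Atf4 (0.068 and 0.076) did without vehicle replicate 2 or DCA replicate 1, and Foxo3 (0.59), Hif1a (0.24), and Trp53 (0.025) without DCA replicate 2. Foxo3 was scarce, at 0 and 3.17 CPM with vehicle and at 2.38 and 0.0997 CPM with DCA. Its log2 fold change was -4.0 without DCA replicate 1, and it was not fitted without vehicle replicate 2. The median of 11 fitted ATF4 targets was 0.12, led in size by Chac1 (5.63) and Vldlr (3.83). Chac1 reached a mean of 1 CPM through the DCA libraries alone, and Vldlr through DCA replicate 1 alone. Vldlr was at 0.536 CPM in DCA replicate 2, 10.4-fold below DCA replicate 1, and was not fitted without DCA replicate 1. Chac1 was the 1 of the 11 with an unadjusted p under 0.05 in edgeR, where 4.27% of all genes had one, and it lost this when either DCA library was left out. The median was -0.14 for 10 p53 targets, led by Eda2r (-1.09, but 1.10 without vehicle replicate 1) and Pmaip1 (-0.91). For 7 FoxO targets it was -0.25, led by Pik3ip1 (-2.48) and Ccr7 (1.22). Pik3ip1 was at 13.4 and 0.267 CPM with vehicle and at 1.61 and 0.848 CPM with DCA. Both DCA libraries thus lay above vehicle replicate 2, and Pik3ip1 was not fitted without vehicle replicate 1. Of the p53 and FoxO targets, 0 genes had an adjusted p under 0.05 in edgeR or DESeq2. In edgeR 0 had an unadjusted p under 0.05, while Ccr7 had an unadjusted p of 0.0462 in DESeq2.

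The 3 fitted genes whose levels over the 4 libraries were nearest to those of Sesn2, by the Euclidean distance of log2(CPM + 1), were A830018L16Rik (0.269), Pafah2 (0.431), and Prkd3 (0.516). A830018L16Rik was at 0.219 and 0 CPM with vehicle and at 18.2 and 4.23 CPM with DCA, Pafah2 at 0.628 and 0.191 CPM against 15.2 and 5.29 CPM, and Prkd3 at 0.656 and 0 CPM against 11.4 and 4.32 CPM.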

How the data were processed

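Full-length cDNA was sequenced by the authors in paired reads, with trimming in cutadapt 1.9 and alignment by HISAT2 2.2.1 against mm10. The deposited table, although named for FPKM, holds whole-number counts of reads per gene. The counting tool, its annotation, and its strand setting are not given in the sources used here. More genes had 2 counts than 1 count (484 against 253 in vehicle replicate 1), so both mates of a pair may have been counted. The 1275 rows without a symbol, at most 0.173% of a library, were kept under their Entrez identifiers.

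Libraries were assigned to treatments by their titles. Counts were scaled with TMM, and edgeR 4.0.16 in R 4.3.3 gave two-sided quasi-likelihood tests of DCA against vehicle for every gene averaging 1 CPM or more, adjusted over all of them (Benjamini-Hochberg). The fit was tested on simulated data. Standard errors are those of differences in log2(CPM + 1), not of the log2 fold changes from edgeR. With 2 libraries per treatment, the smallest exact permutation p is 0.333. Lengths are from GENCODE M21, and positions and promoters from RefSeq GRCm38.p6, which holds 25275 of the 27179 Entrez identifiers. The genes and lists were chosen with earlier results of these data known. The other pathway genes named were those with an unadjusted p under 0.05 and the 2 of each group with the largest log2 fold change in size, the regulators were all named, and so were 2 per target list and the 3 genes nearest to Sesn2. Tsc1, Rheb, Rhebl1, and Flcn were named after their values were seen. Alternatives were median-of-ratios and total-count scaling, DESeq2 1.42.0, limma 3.58.1 on log2(CPM + 1), no filter, a mean of at least 5 CPM, filterByExpr, thinning, the replicate block, and leaving out each library. The fit of Ddit4 without DCA replicate 1 on the genes of the full fit was added after seeing the data. A marker list of 1 other cell type is not reported here.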

Additional observations from a re-analysis of the deposited data

How the results depend on the processing

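Sesn1, Sesn2, Sesn3, Nprl2, Rragc, and Mtor kept the sign of their log2 fold change under all 13 alternatives, and Rragd under the 12 that could be fitted. Rragd and Ddit4 were not fitted with a mean of at least 5 CPM. Ddit4 also fell below the filter without DCA replicate 1. With the genes of the full fit kept there, an alternative added after seeing the data, it turned to -0.45 and the median of the 10 genes to -0.174. Over the alternatives with all libraries, Sesn2 ranged from 2.99 to 6.68 and Rragd from -7.67 to -2.28.

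Genes with an adjusted p under 0.05 numbered 126 with DESeq2 and 36 without a filter, and genes with an unadjusted p under 0.05 numbered 784 and 847. The median of the other pathway genes was 0.188 with limma. Whether libraries of 1 replicate number share mice or a batch is not stated. Such libraries deviated from their group means with a correlation of 0.0197 over genes. With 2 libraries per treatment this cannot decide whether they are paired. With the replicate block 1 pathway gene had an unadjusted p under 0.05, the pathway median was 0.209, and the log2 fold change was 6.68 for Sesn2 and -7.65 for Rragd. The cause of the shifts with DESeq2, limma, and the block was not tested, and without a filter more genes were fitted.

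With 1 library left out, the lone library of a treatment is assumed to vary like the others. Genes with an adjusted p under 0.05 then numbered 0 to 20, genes with an unadjusted p under 0.05 numbered 106 to 1497, and pathway genes 0 to 1 and 0 to 8, the most without vehicle replicate 1, where Ulk1 had an adjusted p of 0.0448 with its remaining vehicle library at 0. The pathway median ranged from 0.130 to 0.164 and that of the 10 genes from -0.174 (without DCA replicate 1, 0.0455 over the 9 genes above the filter) to 0.707. Of 34 named genes outside the 10, 12 turned sign with 1 library left out, and none of these 12 had an unadjusted p under 0.05 with all libraries. Depth limits Sesn2 and Rragd, which had a library at 0 counts. Of all genes fitted, 7.01% had 0 counts in 1 vehicle library only, as Sesn2 did. For 1 DCA library only, as for Rragd, the share was 3.22%.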
